A study of Mus musculus with 25 samples.

Results

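Genes for 10 enzymes that modify and crosslink the extracellular matrix were followed across 25 mouse hearts: 1 transglutaminase (Tgm2), the catalytic subunits of 2 collagen prolyl 4-hydroxylases (P4ha1 and P4ha3), 2 lysyl hydroxylases (Plod1 and Plod2) and the 5 lysyl oxidases (Lox, Loxl1, Loxl2, Loxl3 and Loxl4). They were found by symbol, 10 of the 56941 genes in the count table, and all 10 passed the filter on low counts, with 17682 genes tested in all. P4ha3 passed it on few reads: its counts reached 10 in only 3 hearts, at 15, 18 and 25 reads. The set was selected on measured values to the extent that earlier results of these data were known, among them the higher Tgm2 counts of Ang/PE than of saline hearts with the MCT1KO label. For the 10 genes that contrast is therefore a description, with no test. Its calls are counted beside those of all genes and again under other settings, and nothing is read from them.

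RNA was sequenced from wild-type (WT) hearts and hearts labelled MCT1KO that had no pump, a saline pump or Ang/PE, neurohormonal agonists under which the heart muscle enlarges. MCT1, the product of Slc16a1, carries lactate and pyruvate across membranes. Without a pump there were 4 WT hearts and 3 labelled MCT1KO, with saline 6 and 4, and under Ang/PE 3 and 5. The labels used here give no strain, sex, age, dose or length of infusion, and do not say which cells or which allele the MCT1KO label refers to.

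Before a fibrillar collagen leaves the cell, prolyl hydroxylases stabilise its triple helix and lysyl hydroxylases mark the lysines that later take part in crosslinks. Outside the cell, copper-dependent lysyl oxidases convert lysines of collagen and elastin to reactive aldehydes, which join neighbouring molecules. Transglutaminase 2 adds a different bond, between glutamine and lysine side chains, and also has roles inside cells. In the heart, fibroblasts make most of the fibrillar collagen, and crosslinked collagen stiffens the wall.

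The promoters of a prolyl hydroxylase that stood out under Ang/PE and of a lysyl hydroxylase that did not pass are shown as a pair. The RefSeq promoter table (build GRCm38.p6) matched 4 of the 10 genes, Plod1, P4ha1, P4ha3 and Loxl4. Each window holds the 250 bases before the annotated start site, 5′ to 3′ on the gene's strand. Capitals mark 2 motifs searched on both strands. ACGTG, a form of the hypoxia response core, reads CACGT from the opposite strand, and the Smad-binding core CAGAC reads GTCTG from there.
P4ha1 promoter, chr10:59323046-59323295, plus strand: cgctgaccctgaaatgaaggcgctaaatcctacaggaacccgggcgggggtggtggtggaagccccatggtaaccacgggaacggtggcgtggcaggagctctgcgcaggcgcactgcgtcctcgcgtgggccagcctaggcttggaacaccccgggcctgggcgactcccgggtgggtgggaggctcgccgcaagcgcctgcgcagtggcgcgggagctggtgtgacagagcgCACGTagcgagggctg
Plod1 promoter, chr4:147936777-147937026, minus strand: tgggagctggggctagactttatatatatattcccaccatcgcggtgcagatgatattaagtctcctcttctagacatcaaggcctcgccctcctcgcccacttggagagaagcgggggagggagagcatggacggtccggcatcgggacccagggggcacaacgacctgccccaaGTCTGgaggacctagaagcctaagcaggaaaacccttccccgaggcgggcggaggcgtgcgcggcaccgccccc
P4ha1 held 1 ACGTG match, on the other strand and beginning at position -16 from the start site, and no CAGAC. Plod1 held 1 CAGAC match, also on the other strand, at position -74 and no ACGTG. Among the 4 windows 1 held ACGTG and 2 held CAGAC, while of all 32851 windows of this length 16.6% held ACGTG and 42.2% held CAGAC. The other form of the hypoxia response core, GCGTG, was not searched, and both printed windows hold it. These are matches of letters only.

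Library totals were 12216704 to 16610416 counts under Ang/PE, 14034354 to 19034565 counts with saline and 18382102 to 24880683 counts without a pump. Slc16a1 averaged 199 to 214 CPM (TMM-scaled counts, on the per-library scale of edgeR) in the 3 WT groups and 158 to 199.8 CPM in the 3 groups labelled MCT1KO. It passed the threshold in none of the 11 comparisons (lowest edgeR adjusted p 0.219). Its log2 difference of MCT1KO label over WT was -0.02 (SE 0.15) without a pump, -0.33 (SE 0.13) with saline and -0.18 (SE 0.15) under Ang/PE. Gene counts of whole hearts cannot show a loss in few cells or of part of the gene. The reads thus do not settle the knockout, and each genotype below is the label alone. All 6 ventricular muscle markers were detected in every group. The saline hearts also carried other tissue: the 3 atrial markers summed to as much as 3679 CPM there, with a median of 327 CPM in WT and 669 CPM under the MCT1KO label, while no other group exceeded 5.73 CPM. The 5 adipose markers reached 1069 CPM with saline and at most 0.572 CPM elsewhere. Xist was above 10 CPM in 2 of 4, 1 of 6 and 3 of 3 WT hearts (no pump, saline and Ang/PE in that order) and in 0 of 3, 3 of 4 and 4 of 5 hearts labelled MCT1KO. The part of these imbalances in the results below was not tested beyond the fits named there.

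Per kilobase of the longest transcript, Tgm2 was the most abundant of the 10 genes and P4ha3 the least. Over the 25 hearts the mean level was 82.3 ± 18.3 CPM per kb (SD, n = 25) for Tgm2, 26.3 ± 2.76 for Plod1, 17.3 ± 6.95 for Loxl1, 13.7 ± 2.62 for P4ha1 and 9.88 ± 1.85 for Plod2. A lower tier followed, with 2.97 ± 0.892 CPM per kb for Loxl2, 2.59 ± 2.06 for Loxl3, 2.00 ± 2.20 for Lox, 0.449 ± 0.208 for Loxl4 and 0.133 ± 0.161 for P4ha3. Tgm2 exceeded Plod1 and Plod2 exceeded Loxl2 in 25 of 25 hearts. Neighbours were less separate elsewhere: Loxl1 exceeded P4ha1 in 20 of 25 hearts and Loxl2 exceeded Loxl3 in 18 of 25. The spread differed as much as the level. The highest heart held 1.64 times the CPM of the lowest for Plod1 and 2.12 times for Tgm2, but 9.95 times for Loxl3 and 18.7 times for Lox.

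**Figure D1:**
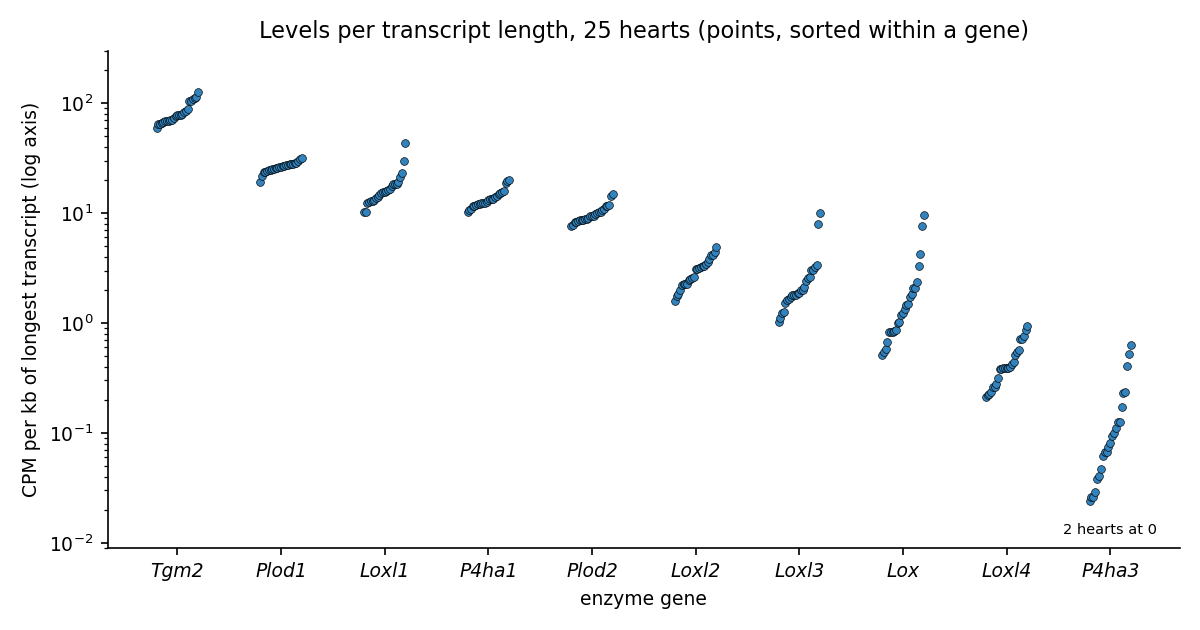
Level of each gene in CPM per kilobase of its longest transcript (log axis), 1 point per heart, sorted within each gene, genes in order of their mean. Tgm2 lies above the other genes, and Lox, Loxl3 and P4ha3 have the longest upper tails; 2 hearts with no P4ha3 read are noted below the axis range.

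Tgm2 had the lowest adjusted p of the 10 genes under Ang/PE against no pump, and it was high in every heart of that group labelled MCT1KO. Those 5 hearts held 373, 376, 397, 408 and 455 CPM, the 4 saline hearts of the label 231, 239.8, 247 and 289 CPM, and the 3 without a pump 215, 233 and 246 CPM. The Ang/PE hearts lay above both other groups of the label without overlap, as in 3.06% of all genes tested that were higher than with saline and 4.49% higher than without a pump. Against saline the log2 fold change was 0.67 (SE 0.10). Against no pump it was 0.80 (SE 0.11, edgeR adjusted p 0.00166), and it was as large, 0.82 (SE 0.12), without the 2 hearts described further on. That comparison shares the 5 Ang/PE hearts with the contrast known when the genes were chosen. Its p-values, here and below, are thus not independent of the choice. The Ang/PE and no-pump groups of the label held at most 5.73 CPM of atrial and 0.559 CPM of adipose markers, whereas the medians of its saline hearts were 669 and 36.8 CPM. With atrial and adipose scores as covariates the saline difference was 0.53 and the no-pump difference 0.80. Xist was above 10 CPM in 4 of 5 Ang/PE hearts and 0 of 3 no-pump hearts of the label. Their library totals did not overlap, at 12216704 to 16565155 and 18885925 to 22608625 counts. With Xist as a covariate 2 of the 10 genes passed against no pump, Tgm2 among them, as without it. Of all genes tested 23 passed in that fit, in place of 89. That fit cannot fully tell Xist status from Ang/PE here. The part of library size in the difference was not tested.

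In WT hearts Tgm2 overlapped between treatments. The 3 Ang/PE hearts held 278, 317 and 391 CPM, the 6 saline hearts 247 to 279 CPM with a median of 259 CPM, and the 4 without a pump 242, 283, 299.8 and 306 CPM. The log2 fold change of Ang/PE was 0.33 against saline (SE 0.10, edgeR adjusted p 0.102) and 0.22 against no pump (SE 0.11, adjusted p 0.574), and neither passed. DESeq2 passed the saline contrast, with an adjusted p of 0.0341. The difference of the responses between genotypes, 0.35 (SE 0.14, edgeR adjusted p 0.325), did not pass either. The difference between genotypes (MCT1KO label over WT) was -0.29 on the log2 scale without a pump (SE 0.11, edgeR adjusted p 0.316) and 0.29 under Ang/PE (SE 0.11, adjusted p 0.692), neither past the threshold.

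P4ha1, the catalytic subunit of the main prolyl 4-hydroxylase, was the other gene past the threshold against no pump. Its 5 Ang/PE hearts labelled MCT1KO held 60.8, 62.6, 75.9, 79.6 and 80.3 CPM, against 46.5, 48.3, 54.8 and 57.6 CPM with saline and 41.0, 47.4 and 54.2 CPM without a pump. No Ang/PE heart overlapped with either group, as in 3.06% (saline) and 4.49% (no pump) of all genes tested that were higher. The log2 fold change was 0.47 (SE 0.10) against saline and 0.60 (SE 0.11, edgeR adjusted p 0.0142) against no pump. The no-pump call was lost without replicate 1 or replicate 2 of the 3 no-pump hearts labelled MCT1KO (adjusted p 0.0531 and 0.182), and Tgm2 lost its call without replicate 2 (adjusted p 0.0669). With only the groups compared P4ha1 did not pass against no pump (adjusted p 0.0946). In WT hearts P4ha1 was at 54.3, 61.5 and 64.1 CPM under Ang/PE, 43.1 to 56.6 CPM with saline (median 49.1 CPM) and 49.9, 50.1, 50.4 and 52.8 CPM without a pump. Its WT log2 fold change was 0.29 against saline (SE 0.10, edgeR adjusted p 0.139) and 0.24 against no pump (SE 0.11, adjusted p 0.539). The WT Ang/PE and no-pump hearts did not overlap, as in 3.63% of all genes tested that were higher. Under Ang/PE the genotypes differed by 0.26 (SE 0.11, edgeR adjusted p 0.711) in P4ha1, which did not pass.

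P4ha3, a sparsely expressed prolyl hydroxylase subunit, was close to the limit of detection. It had 0 to 6 reads in each of the 7 hearts without a pump and 1 to 4 in the 6 WT saline hearts. WT Ang/PE hearts had 1, 4 and 8 reads. Among hearts labelled MCT1KO it had 1, 5, 7 and 15 reads with saline and 1, 4, 7, 18 and 25 under Ang/PE. The 15 reads came from saline replicate 2 of that label and the 18 and 25 from Ang/PE replicates 2 and 5. The groups overlapped. Fitted fold changes, which appear in the plot of fold changes, rest on these few reads and depend on the prior count, so they are not quoted. The edgeR adjusted p was 0.131 for Ang/PE against no pump in hearts labelled MCT1KO and 0.271 between genotypes with saline. P4ha3 reached the level of the low-count filter only in hearts of that label. These p-values are thus not independent of the filter, and nothing is read from them.

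Neither lysyl hydroxylase passed in any of the 11 edgeR comparisons. Plod1, which acts on lysines of the collagen helix, averaged 103 ± 10.8 CPM (SD, n = 4) without a pump, 106 ± 4.35 CPM (n = 6) with saline and 112 ± 8.88 CPM (n = 3) under Ang/PE in WT hearts. With the MCT1KO label the means were 97.6 ± 0.366 CPM (n = 3), 108 ± 21.3 CPM (n = 4) and 117 ± 6.57 CPM (n = 5). Its 5 Ang/PE hearts labelled MCT1KO, at 108 to 127 CPM, lay above the 3 without a pump, at 97.2 to 97.9 CPM, with a log2 change of 0.26 (SE 0.11, edgeR adjusted p 0.28). Such separation as higher was found in 4.49% of all genes tested. Plod2, the telopeptide lysyl hydroxylase, held 36.1, 37.2 and 55.0 CPM in WT Ang/PE hearts and 28.5 to 33.2 CPM in WT saline hearts. These groups did not overlap, as in 6.39% of all genes tested that were higher, and the difference of 0.43 in log2 (SE 0.15, edgeR adjusted p 0.126) did not pass; it did with only the groups compared (adjusted p 0.0425). One heart, replicate 3, supplied the value of 55.0 CPM. In hearts labelled MCT1KO Plod2 ran from 30.3 to 52.0 CPM under Ang/PE and overlapped with the 27.8 to 37.1 CPM of saline hearts.

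**Figure D2:**
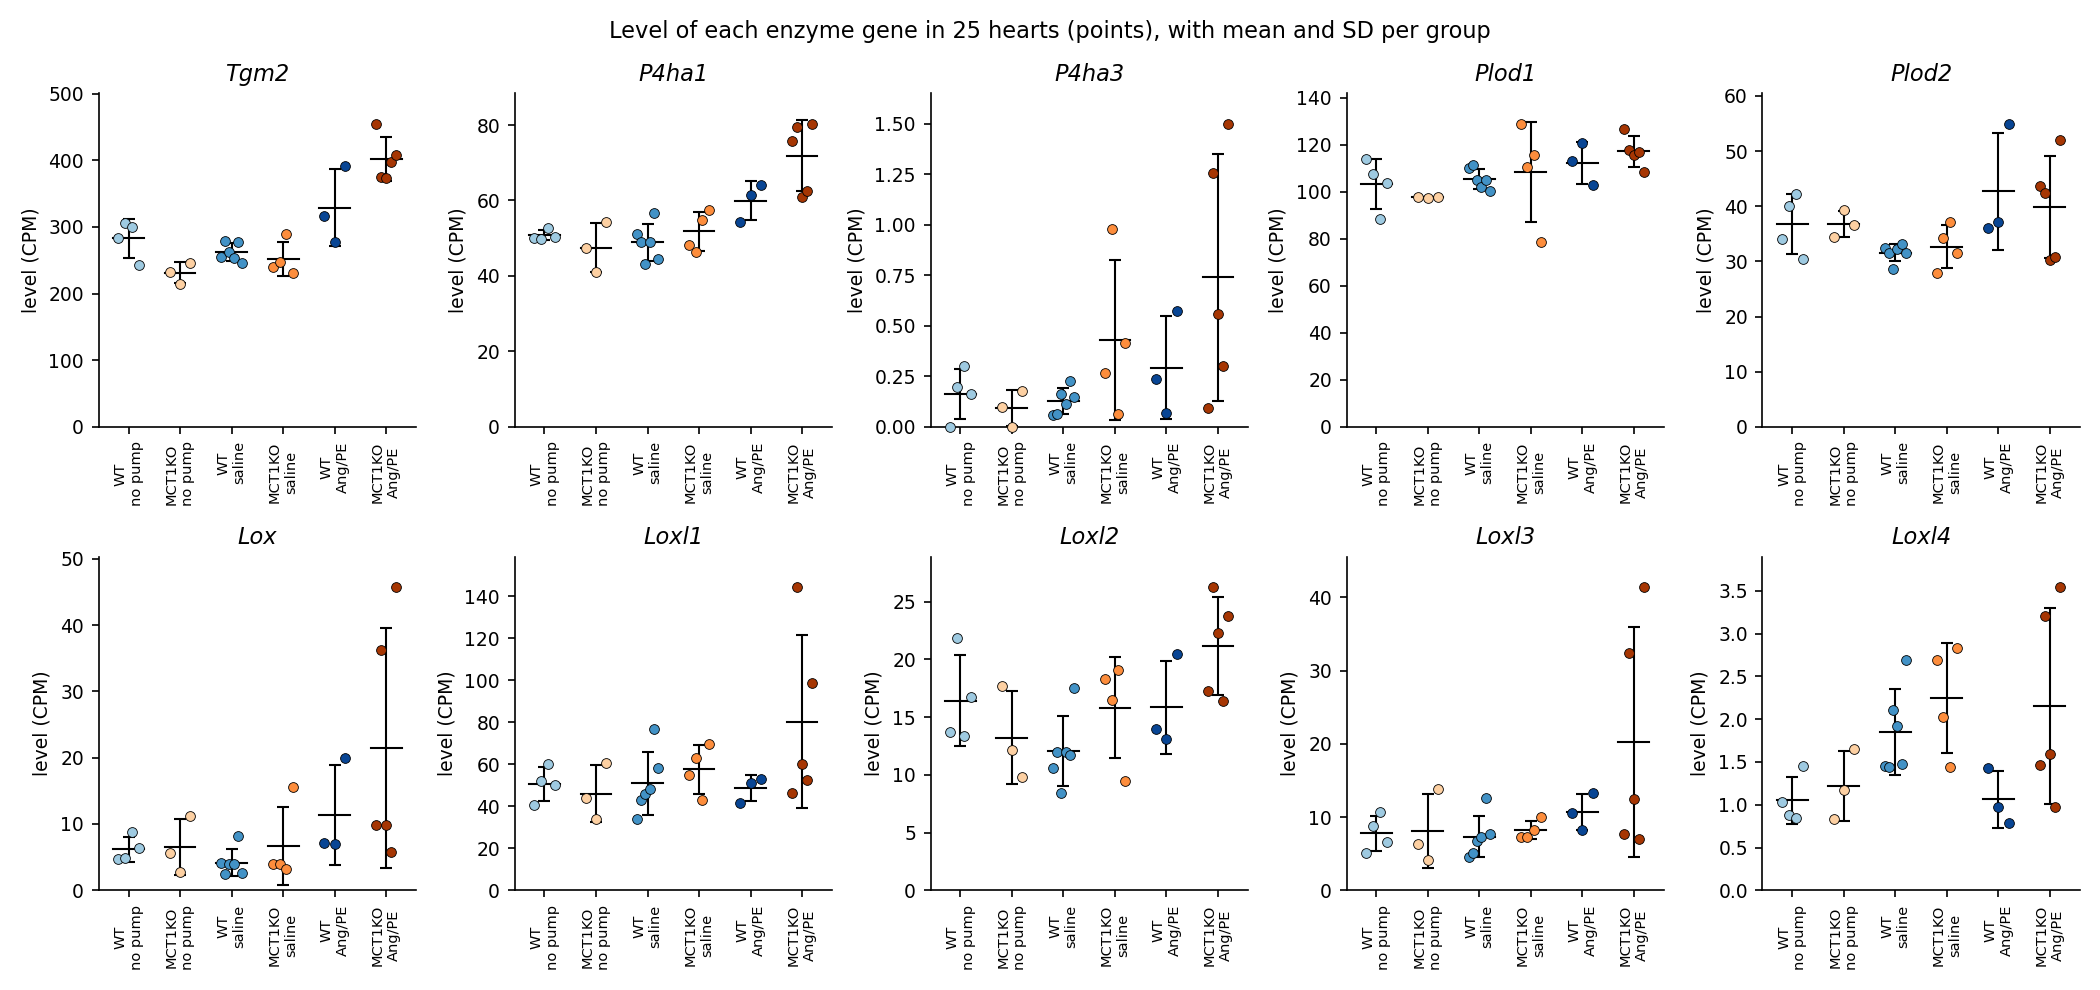
Level of each gene in CPM (linear axes from 0), with 1 point per heart and the mean and SD of each group. Tgm2 and P4ha1 are high in all 5 Ang/PE hearts labelled MCT1KO, whereas Lox, Loxl1, Loxl3 and Loxl4 are high in 2 of the 5.

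None of the 5 lysyl oxidases passed in any of the 11 edgeR comparisons, and the high values of Lox, Loxl1, Loxl3 and Loxl4 in Ang/PE hearts labelled MCT1KO came from 2 hearts, whereas Loxl2 was more even. Lox, the founding member of the family, held 5.83, 9.87, 9.87, 36.2 and 45.7 CPM in the Ang/PE hearts labelled MCT1KO. With saline it held 3.19, 3.93, 4.01 and 15.5 CPM, and without a pump 2.75, 5.59 and 11.1 CPM. The 2 highest Ang/PE hearts stood far above the other 3, which overlapped with both groups. The log2 fold change was 1.70 (SE 0.62) against saline and 1.72 (SE 0.69, edgeR adjusted p 0.271) against no pump. In WT hearts Lox was at 6.92, 7.10 and 20.01 CPM under Ang/PE, 2.45 to 8.11 CPM with saline (median 3.90 CPM) and 4.74 to 8.74 CPM without a pump, with a log2 change of 1.44 against saline (SE 0.63, edgeR adjusted p 0.224).

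Loxl3, a scavenger-receptor domain member of the family, followed the same hearts. It was at 7.03, 7.68, 12.5, 32.4 and 41.4 CPM under Ang/PE in hearts labelled MCT1KO, at 7.33 to 9.97 CPM with saline and at 4.16, 6.28 and 13.9 CPM without a pump. The log2 fold change was 1.31 (SE 0.47) against saline and 1.32 (SE 0.51, edgeR adjusted p 0.259) against no pump. WT hearts held 8.25, 10.5 and 13.2 CPM under Ang/PE and 4.53 to 12.5 CPM with saline, and overlapped.

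Loxl1, which is known for its role in elastic fibres, was at 46.2, 52.3, 60.1, 98.8 and 144 CPM in the Ang/PE hearts labelled MCT1KO and at 42.7, 54.7, 63.0 and 69.7 CPM with saline. Against no pump (33.8, 43.7 and 60.5 CPM) its log2 fold change was 0.80 (SE 0.32, edgeR adjusted p 0.262). WT Ang/PE hearts, at 41.4, 51.3 and 53.1 CPM, lay within the 33.8 to 76.8 CPM of WT saline hearts. Under Ang/PE the genotypes differed by 0.73 (SE 0.32, edgeR adjusted p 0.711).

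Loxl2, a lysyl oxidase that acts on basement membrane collagen, was at 16.4, 17.3, 22.3, 23.8 and 26.3 CPM in the Ang/PE hearts labelled MCT1KO, more evenly than Lox. With saline it held 9.44, 16.5, 18.3 and 19.1 CPM, and without a pump 9.83, 12.1 and 17.7 CPM, with a log2 change of 0.68 against no pump (SE 0.25, edgeR adjusted p 0.228). In WT hearts its level with saline, 8.39 to 17.5 CPM with a median of 11.9 CPM, overlapped with the 13.4 to 21.9 CPM found without a pump. The response to the saline pump differed between genotypes by 0.71 (SE 0.34), which did not pass (edgeR adjusted p 0.289).

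Loxl4 was the scarcest lysyl oxidase, at 11 to 59 reads per heart, and its WT hearts under Ang/PE lay below those with saline. WT hearts held 0.786, 0.978 and 1.43 CPM under Ang/PE, 1.44 to 2.69 CPM with saline (median 1.70 CPM) and 0.849 to 1.45 CPM without a pump. The WT Ang/PE and saline hearts did not overlap, as in 7.16% of all genes tested that were lower, at a log2 change of -0.79 (SE 0.37, edgeR adjusted p 0.248). Saline against no pump gave 0.82 in WT, where the groups overlapped (SE 0.32, edgeR adjusted p 0.119), and 0.88 in hearts labelled MCT1KO (SE 0.37, adjusted p 0.344), and neither passed. Both saline groups held the atrial and adipose markers given above, and with those scores as covariates the values were 0.32 and 0.26. In the Ang/PE hearts labelled MCT1KO Loxl4 was at 0.972, 1.46, 1.59, 3.21 and 3.54 CPM, and differed from WT by 1.02 (SE 0.38, edgeR adjusted p 0.692). Its log2 fold change in those hearts was 0.83 against no pump (SE 0.36, edgeR adjusted p 0.312) and -0.04 against saline.

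**Figure D3:**
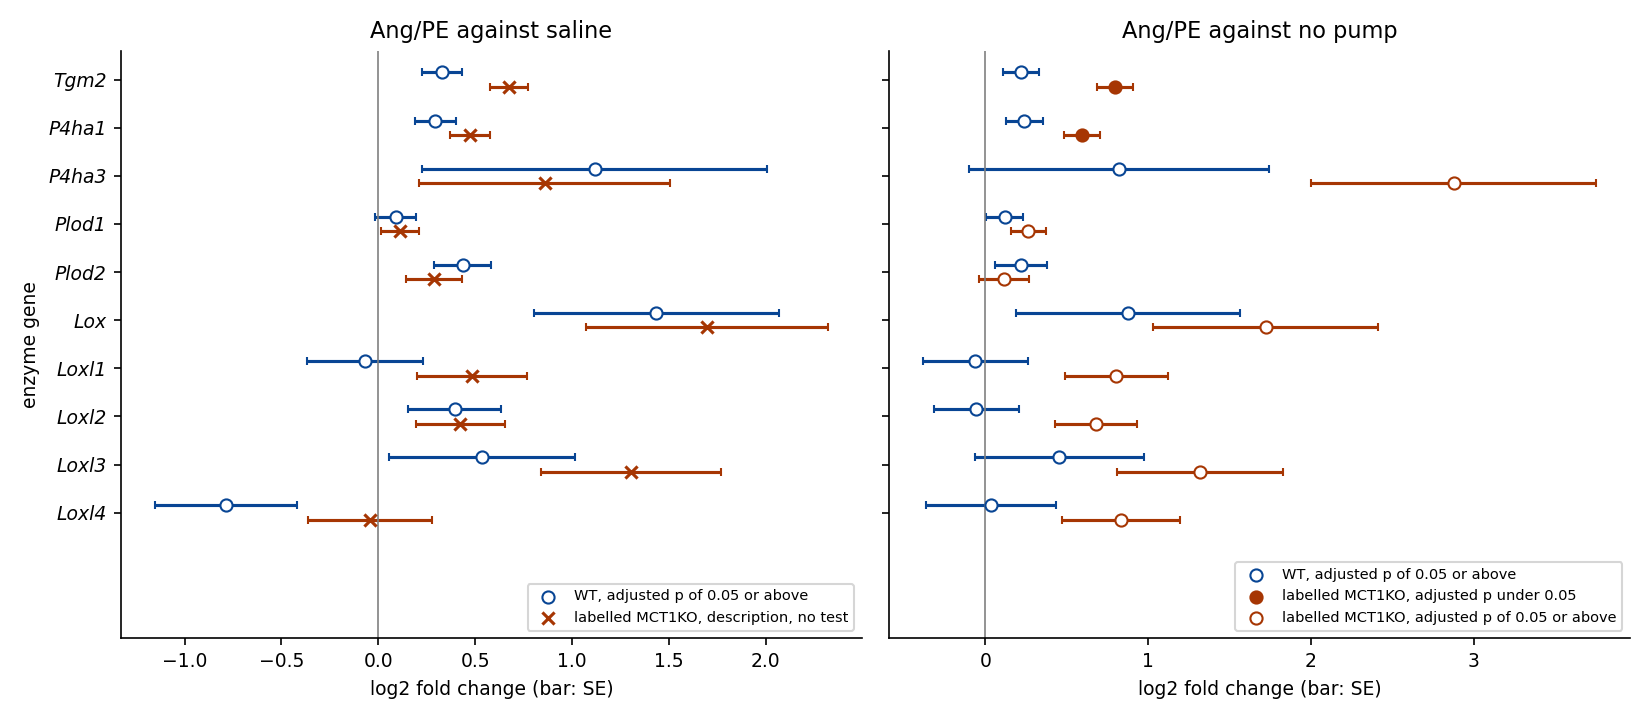
Log2 fold change of Ang/PE against saline (left) and against no pump (right) for each gene, with bars of 1 SE, in WT hearts and in hearts labelled MCT1KO. Crosses mark the contrast that is a description without a test. Among the other points only Tgm2 and P4ha1 against no pump in hearts labelled MCT1KO are filled, for an edgeR adjusted p under 0.05. The filled points share their Ang/PE hearts with the crosses.

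Counted over the 10 genes, the response to Ang/PE was as follows. In hearts labelled MCT1KO 2 of 10 had an adjusted p below 0.05 as higher than with saline, beside 1.75% of all genes tested. The set was proposed with this contrast known, and nothing is read from the count. Against no pump in the same hearts 2 of 10 passed as higher, beside 0.249% of all genes, and 9 of 10 had an unadjusted p below 0.05 as higher, beside 7.01%. That comparison holds the same 5 Ang/PE hearts as the contrast known when the genes were chosen, so its counts are not independent of the choice. Of the 9, 1 is P4ha3, whose few reads reached the level of the low-count filter only in hearts labelled MCT1KO. All 10 log2 fold changes were above 0 there, with a median of 0.80, while 49.4% of all genes tested were above 0, with a median of -0.00. In WT hearts 0 of 10 passed in the edgeR test against saline, beside 0.017% of all genes, with 4 higher and 1 lower at an unadjusted p below 0.05, beside 9.47% and 9.58%. DESeq2 called 1 of the 10 there, and 641 genes in all. Against no pump 0 of 10 passed in WT hearts with either tool, beside 0% of all genes in edgeR, and 1 had an unadjusted p below 0.05 as higher, beside 3.91%. The comparisons with saline and with no pump share their Ang/PE hearts, so they are not separate evidence.

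The remaining comparisons called none of the 10 genes, with edgeR or DESeq2. Saline against no pump gave 0 in WT hearts, where 6.61% of all genes passed, and 0 in hearts labelled MCT1KO, where 0.00566% did, with 1 and 2 higher at an unadjusted p below 0.05, beside 11.4% and 7.43%. Among the 2 is P4ha3, whose few reads reached the level of the low-count filter only in hearts labelled MCT1KO. Between genotypes the count was 0 without a pump, with saline and under Ang/PE, where 0% of all genes passed in each. At an unadjusted p below 0.05, 1 was lower, 1 higher and 4 higher, beside 6.74%, 8.43% and 3.99%. The 1 with saline is P4ha3, with the same limit of the filter. The 4 hold the Ang/PE hearts of the contrast known when the genes were chosen, so they are not independent of the choice. The median log2 fold change of the 10 genes between genotypes was -0.09 without a pump, 0.17 with saline and 0.58 under Ang/PE. The last median rests on those Ang/PE hearts too. The interaction of genotype with Ang/PE called 0 of 10 (0% of all genes), with 1 higher at an unadjusted p below 0.05, beside 7.48%. That 1 was Tgm2, and it rests on the same Ang/PE hearts. The interaction with the saline pump called 0 of 10 (0.00566%), with 1 higher, beside 8.86%.

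Replicates 2 and 5 of the Ang/PE hearts labelled MCT1KO were the 2 highest of their group in 7 of the 10 genes, all but Tgm2, Plod1 and Plod2. In each of those 7 genes both hearts also exceeded the other 23 hearts of the series. For Lox the lower of the pair was at 36.2 CPM and the highest other heart at 20.01 CPM, and for P4ha1 the values were 79.6 and 75.9 CPM. The pair was chosen after the values were seen; it was the highest of its group in 14.9% of all genes tested. Postn, which encodes periostin, a matrix protein of activated fibroblasts, was at 548 and 492 CPM in these hearts and at 74.0, 77.9 and 159 CPM in the other 3. The summed level of the 6 fibroblast markers was 2613 and 2186 CPM against 1556 to 1997 CPM, within the 1515 to 4420 CPM of the other groups. Their library totals were 13923199 and 16565155 counts, against 12216704 to 14216391 counts in the other 3, and the mitochondrially encoded share was 8.87% and 11.8% against 10.5% to 13.5%. The 6 ventricular muscle markers summed to 38389 and 34823 CPM, below the 46819 to 49080 CPM of the other 3. The leukocyte and macrophage markers summed to 314 and 222 CPM against 161 to 173 CPM, and the erythroid markers to 2133 and 819.6 CPM against 288 to 982 CPM. The part of these in the pattern was not tested.

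Without the pair, Tgm2 remained past the threshold against no pump and P4ha1 did not. In that comparison 1 of 10 genes then passed, P4ha1 was at 0.48 (SE 0.11, edgeR adjusted p 0.118), and the median of the 10 genes was 0.33 in place of 0.80. Only Tgm2, P4ha1 and Plod1 (0.29, SE 0.12) then had an unadjusted p below 0.05 as higher, 3 of 10 in place of 9, beside 5.22% of all genes tested. Plod2 was at -0.08, and was at 0.11 with the pair. Against saline the median was 0.14 in place of 0.48. The log2 fold change of Lox against saline was then 0.35, that of Loxl3 0.14, and that of Loxl1 -0.13, the opposite direction from the plotted value with the pair. Under Ang/PE the median difference between genotypes was 0.13 in place of 0.58.

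**Figure D4:**
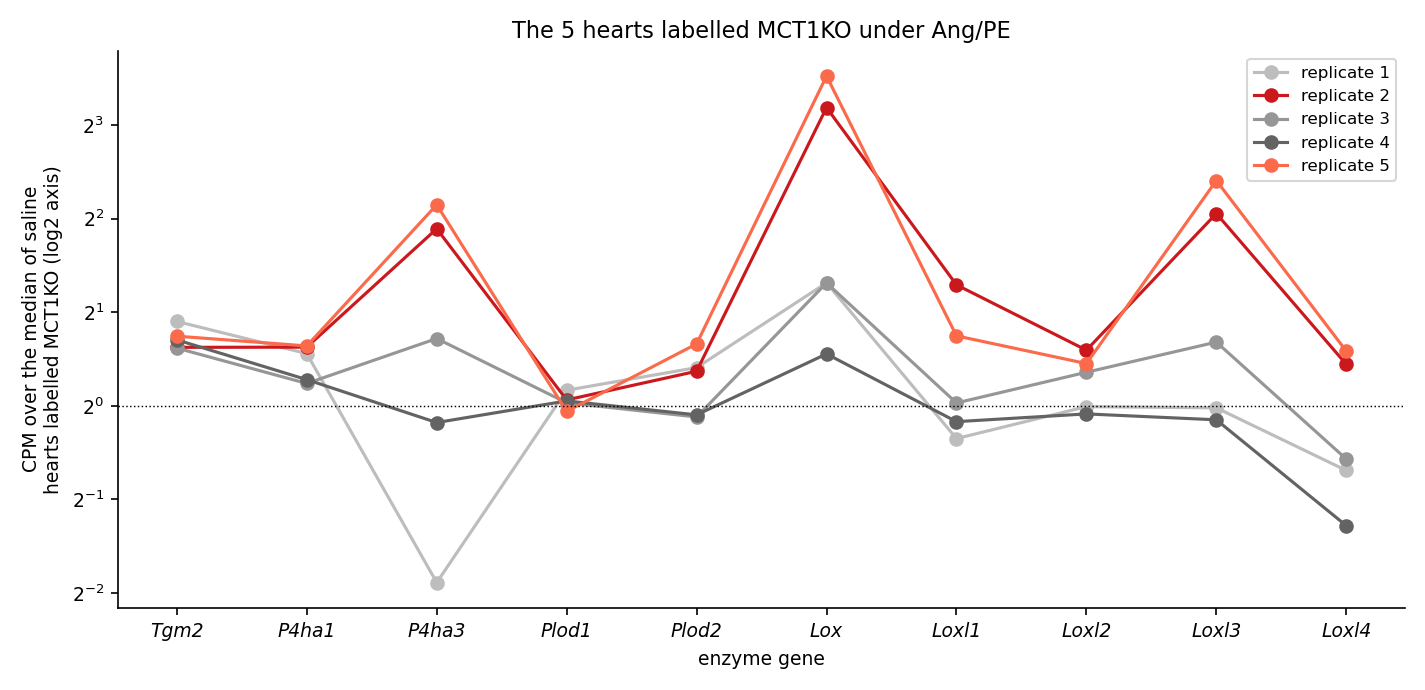
Level of each gene in the 5 Ang/PE hearts labelled MCT1KO, as a ratio to the median of the 4 saline hearts of that label (log2 axis, 1 line per heart). Replicates 2 and 5 run above the others for Lox, Loxl1, Loxl3, Loxl4 and P4ha3, and all 5 run together for Tgm2 and Plod1.

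Within groups, Lox, Loxl1 and Loxl3 varied together from heart to heart, while Tgm2 and Loxl2 varied apart from Lox. As a description over 25 hearts, in which all genes share a library and its scaling, the deviations from group means of Loxl1 and Loxl3 in log2 CPM had a Pearson correlation of 0.88, those of Lox and Loxl3 0.83, and those of Lox and P4ha1 0.76. Tgm2 stood apart from them, at 0.11 with Lox and -0.10 with Loxl1, and went most with Plod2, at 0.61. Loxl2 had a value of -0.06 with Lox. Plod1 had negative values with Lox (-0.57) and Loxl1 (-0.38). Across the same hearts the deviations of Lox, Loxl1 and Loxl3 had correlations of 0.72, 0.74 and 0.70 with the summed fibroblast markers, and P4ha1 one of 0.67, against 0.11 for Tgm2, -0.17 for Loxl2 and -0.55 for Plod1. Without replicates 2 and 5 of the Ang/PE hearts labelled MCT1KO (23 hearts) Lox and Loxl3 were at 0.70, Lox and P4ha1 at 0.69, P4ha1 and the fibroblast markers at 0.63, and Lox and Loxl4 at 0.14 in place of 0.51, while Tgm2 and Plod2 were at 0.77. In these bulk samples, more cells of a type and more RNA per cell cannot be told apart.

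**Figure D5:**
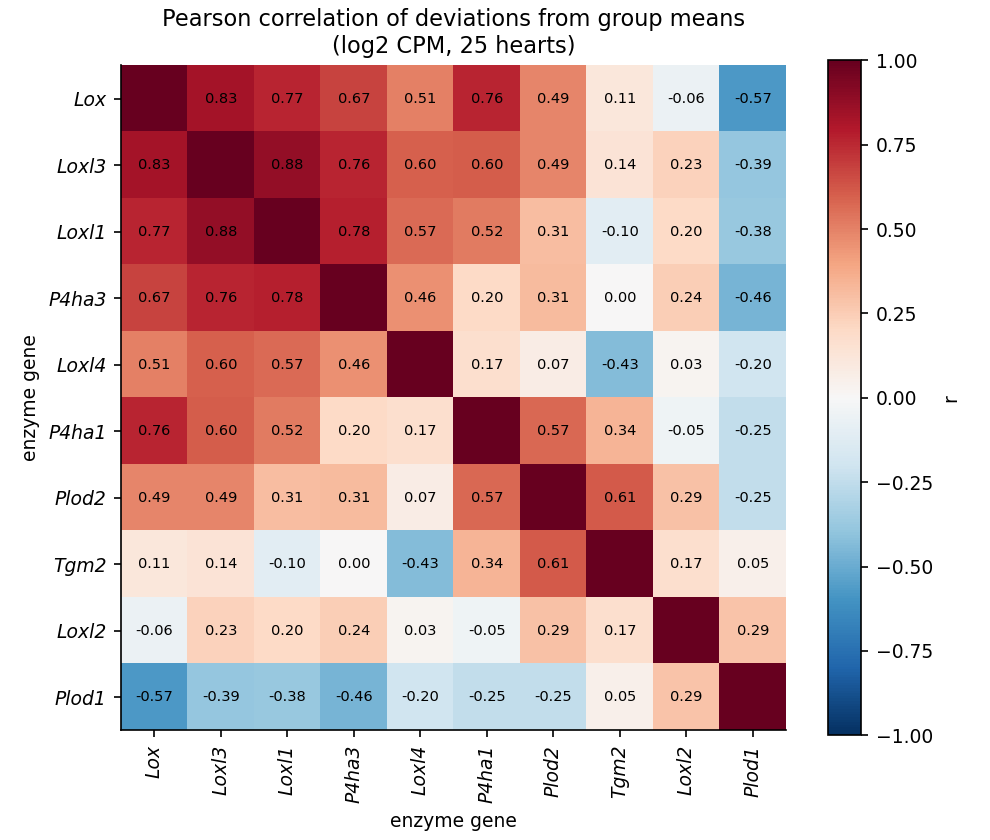
Pearson correlation between each pair of genes of the deviations from group means in log2 CPM over 25 hearts (colour scale from -1 to 1, values printed). Lox, Loxl1, Loxl3 and P4ha3 form a block of positive values, and Plod1 has mostly negative ones.

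Among 12807 genes with a symbol and a mean log2 CPM above 1, those most like Tgm2 over the 25 hearts were Sptan1, Rusc2 and Gm44710, with a Pearson correlation in log2 CPM of 0.91, 0.90 and 0.89, and of 0.83, 0.68 and 0.67 for deviations from group means. Those most like Lox were Postn, Pkd2 and Arfgap3, at 0.90 each, and 0.86 to 0.88 for the deviations. Those most like P4ha1 were Mical2, Pdlim7 and Ccdc68, at 0.88, 0.87 and 0.86, and 0.58, 0.60 and 0.81 for the deviations. Postn was also among the 3 most like Loxl3 and P4ha3.

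Other genes of collagen maturation were counted by list. Of 11 further hydroxylases and their partners, 1 passed as lower under Ang/PE than with saline (MCT1KO label): P3h4, which encodes a subunit of a lysyl hydroxylase complex in the endoplasmic reticulum, at -0.53 (SE 0.15, edgeR adjusted p 0.0383). The WT value was -0.54 (adjusted p 0.0844). Of 10 genes of procollagen folding and processing, Fkbp10, a chaperone that works with the telopeptide lysyl hydroxylase, passed as lower in the same comparison, at -0.54 (SE 0.13, edgeR adjusted p 0.0181), with -0.64 in WT hearts (adjusted p 0.0544). Of all 17682 genes tested 788 were called in that comparison, 310 of them as higher. With atrial and adipose scores as covariates the 788 became 1, so at most 1 of these calls can have held. Only saline hearts had high scores, so that fit cannot fully tell such tissue from the saline pump. The part of the atrial and adipose tissue of the saline hearts in these values was not tested further. P4ha2 and Plod3, the remaining members of the hydroxylase families, were not called in the same comparison, at 0.45 (SE 0.14, edgeR adjusted p 0.0656) and 0.07 (SE 0.09, adjusted p 0.72). Over all pairs of gene and comparison, the hydroxylases and partners had 17 of 121 at an unadjusted edgeR p below 0.05 (14%). The folding and processing genes had 23 of 110 (20.9%), beside 15% of the pairs of all genes tested. DESeq2 gave 7 and 4 calls. Over all genes DESeq2 called 1224 for Ang/PE against saline with the MCT1KO label and 1949 for saline against no pump in WT. No share over the 11 comparisons stands beside its calls, here or below, so nothing is read from their number.

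Saline against no pump in WT hearts called Ppib, a collagen prolyl isomerase, at -0.32 (SE 0.09, edgeR adjusted p 0.0439) and F13a1, the plasma transglutaminase subunit made by macrophages, at -0.68 (SE 0.16, adjusted p 0.0184). F13a1 was the 1 gene tested of 7 further transglutaminases, with 3 DESeq2 calls in the 11 comparisons, and Cd68, a macrophage marker, was lower in that saline comparison too, at -1.07 (SE 0.26, adjusted p 0.0204). There 6.61% of all genes tested passed, 1168 genes. With atrial and adipose scores as covariates 0 passed, so the calls of Ppib, F13a1 and Cd68 were lost in that fit, which has the limit given above. The substrates were not called in any of the 11 comparisons: 0 of 10 collagen, elastin, fibronectin and elastic fibre genes passed in the edgeR test. Of their 110 pairs of gene and comparison 25 had an unadjusted p below 0.05 (22.7%), of which 8 were higher in Ang/PE against no pump with the MCT1KO label (beside 7.01% of all genes), and DESeq2 called 1, in that comparison. Without replicates 2 and 5 of the Ang/PE hearts the 8 became 0 and their median there 0.25. Their median log2 fold change of Ang/PE against no pump was 0.73 in hearts labelled MCT1KO and -0.09 in WT hearts, beside medians of -0.00 and -0.01 over all genes. The 4 copper delivery genes gave 0 calls in the 11 edgeR comparisons, with 9 of 44 pairs of gene and comparison at an unadjusted p below 0.05 (20.5%) and 1 DESeq2 call.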

How the data were processed

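RNA from 25 hearts was depleted of ribosomal RNA and made into stranded libraries, per the labels' protocols. The authors deposited raw read counts per Ensembl gene, 1 column per heart. The submitters' processing notes name STAR 2.7.9a, cutadapt 1.16, featureCounts 1.6.3 and DESeq2 1.42.1 and the build GRCm39; annotation, strand setting and treatment of shared reads are not given in the sources used here, so reads of overlapping or antisense genes can be misassigned. Columns were matched by the library identifier in the titles. Symbols, transcript length and GC content came from GENCODE M21, which named 51948 genes.

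Genes were filtered with filterByExpr by group and scaled by TMM. All 25 hearts in 6 groups were fitted with glmQLFit (robust) and tested two-sided with glmQLFTest in edgeR 4.0.16 (R 4.3.3), with Benjamini-Hochberg adjustment over 17682 genes in each of 11 comparisons; a gene passed at an adjusted p below 0.05. The fit has 19 residual degrees of freedom and was tested on simulated data. SE came from the F statistic. CPM is edgeR's count scaled to the TMM-adjusted library, and log2 CPM has a prior count of 2. The members and gene lists were chosen with earlier results of these data known. All members were named; fold changes were given for those with an unadjusted p below 0.05 or a call in either genotype, except P4ha3 because of its few reads, and for a few others. P-values measure the spread between hearts as labelled. Alternatives were RLE, DESeq2 1.42.0, no filter, only the groups compared, a block for the number of the replicate, GC and length offsets (mgcv 1.9.3), both together, a fit without the robust option, leaving mitochondrially encoded genes out, Xist or atrial and adipose scores as covariates, and leaving out each heart of the groups compared; leaving out 2 hearts together was chosen after seeing the data.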

Additional observations from a re-analysis of the deposited data

Results flagged for a closer look

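In 40 tests of a gene within a group of 4 to 6 hearts, 2 hearts lay far from the others of their group, which is the share chance gives, about 1 in 20. Lox in log2 CPM was 3.97 in MCT1KO saline replicate 4, above the 1.72 to 2.05 of the other 3 hearts; that heart also had the highest summed atrial (3679 CPM), adipose (1069 CPM) and mesothelial (79.5 CPM) markers of the series. Plod2 was 4.84 in WT saline replicate 3, below the 4.98 to 5.06 of the other 5 hearts. No cause was tested for either. Neither interaction with genotype passed for any of the 10 genes.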

How the results depend on the processing

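Counts of the 10 genes called changed under few of the 11 settings. In WT hearts the count of 0 for Ang/PE against saline became 1 with DESeq2 (Tgm2) and 1 with only the groups compared (Plod2). In hearts labelled MCT1KO the count of 2, a description of a contrast known when the genes were chosen, became 0 with only the groups compared, 0 with atrial and adipose covariates and 1 without Ang/PE replicates 2 and 5. Against no pump in these hearts the count of 2 became 1 with only the groups compared and 1 without those replicates; for Tgm2 the adjusted p ran from 2.08e-10 to 0.0286. In WT hearts the count of 0 for saline against no pump became 1 with only the groups compared (Loxl4). Leaving out single hearts gave 0 to 2 for Ang/PE against no pump in hearts labelled MCT1KO, 2 to 2 against saline, and 0 elsewhere. Over all genes tested, the 3 called between WT Ang/PE and saline hearts became 641 with DESeq2 and 923 with only the groups compared, and the 788 called with the MCT1KO label became 1 with only the groups compared and 1 with atrial and adipose covariates. The 1168 called between WT saline and no-pump hearts became 0 with those covariates and 120 with GC and length offsets. With the replicate block and these offsets together they became 12. The cause of these changes was not tested. With the replicate block, alone or with GC and length offsets, every count was as in the fit without it: 2 and 2 for Ang/PE in hearts labelled MCT1KO, and 0 elsewhere. Same-numbered hearts share only a number: over 52 such pairs the deviations from group means correlated at 0.0127 on average (-0.394 to 0.403), with 18 pairs over 0.1. None of the fold changes given by the naming rule reversed in 358 values under other settings or 275 with a heart left out. Outside that rule several reversed without replicates 2 and 5. Among them, Loxl1 against saline in hearts labelled MCT1KO went to -0.13. The difference between genotypes under Ang/PE went from 0.94 to -0.41 for Lox and from 0.93 to -0.23 for Loxl3. The median of the 10 genes in the interaction of genotype with Ang/PE went from 0.22 to -0.12. RLE and removal of mitochondrially encoded genes moved the median of all genes by at most 0.017 on the log2 scale. Depth limits P4ha3 and Loxl4, with at most 25 and 59 reads per heart.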
